A study of Arabidopsis thaliana with 6 samples.

Results

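The transcriptome of wild-type Arabidopsis thaliana seedlings grown with added copper was compared with that of wild-type seedlings grown without it. Both groups were whole Col-0 seedlings harvested 7 days after transfer to 22 °C under continuous white light, after 4 days of cold at 4 °C, on standard Murashige and Skoog (MS) medium either as it is or with 5 µM CuSO4. A further pair of groups, used where it shows how the wild type differed, was the spl7 mutant under the same growth conditions on the same media; the labels do not name its allele. Each of the 4 groups was 1 RNA-seq library, so the differences below could not be checked against replicates and carry no p-values. Binding of SPL7 had been mapped by FLAG ChIP-seq, in 7-day seedlings on MS with a FLAG-SPL7 transgene under the constitutive 35S promoter, against spl7 seedlings as the negative control. Genes were chosen by a rule on level and annotation: at least 5 FPKM in either wild-type library (a level per kilobase of transcript that is scaled to the library and so allows for gene length), with entries for conserved upstream reading frames (CPuORFs) and entries that share their locus interval with another entry set aside. Of 27052 gene entries, 3374 (12.5%) were set aside, 7790 were below 5 FPKM in both libraries and 15888 (58.7%) were counted.

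Copper is a cofactor of plastocyanin in photosynthesis, of cytochrome c oxidase in respiration and of the copper/zinc superoxide dismutases, and it is toxic in excess. SPL7 belongs to the SBP-domain transcription factors and, when copper is scarce, is known to switch on copper reductases and transporters together with microRNAs such as miR398 and miR408. These microRNAs lower the transcripts of copper proteins that can be spared, while an iron superoxide dismutase takes the place of the copper/zinc enzyme in the chloroplast, a response often called copper economy. MS medium itself holds a trace of copper, and seedlings on it are commonly used as the low-copper state in such work.

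The wild-type libraries were close to each other in level. Their FPKM values summed to 4496207 on MS and 4402187 with copper, with medians of 29.8 and 30.3 FPKM over all entries, and the number of reads behind a value is not known. SPL7 itself was at 107 FPKM on MS, 105 FPKM with copper, against 20.2 and 20.7 FPKM in spl7, which matches the genotype labels. Both wild-type libraries held green-tissue and root transcripts, as whole seedlings should. The summed level of 18 antenna, photosystem and Rubisco genes was 459651 and 423765 FPKM, and that of 10 root markers was 579 and 536 FPKM. Because these are bulk samples, fewer cells of a type and less RNA per cell cannot be told apart.

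Most transcripts were at similar levels with and without added copper. The log2 ratio of copper to MS, computed on FPKM + 1, had a median of -0.0024 over the 15888 genes, its 5th and 95th percentiles were -0.29 and 0.39, and 15344 genes (96.6%) stayed within 1.5-fold. With 2-fold as the limit, 137 genes were called higher (0.862%) and 47 were called lower (0.296%). FSD1 had the largest ratio of all, followed by the lower transporter gene ZIP2 and by AT4G37095, which was higher. The scale understates the change of low genes because of the added 1. At the limit itself, AT5G65040 stood at 14.9 and 30.8 FPKM and was just inside with a log2 ratio of 1.00, and AT1G76600 stood at 87.0 and 175 FPKM and was just outside with 0.9985.

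**Figure D1:**
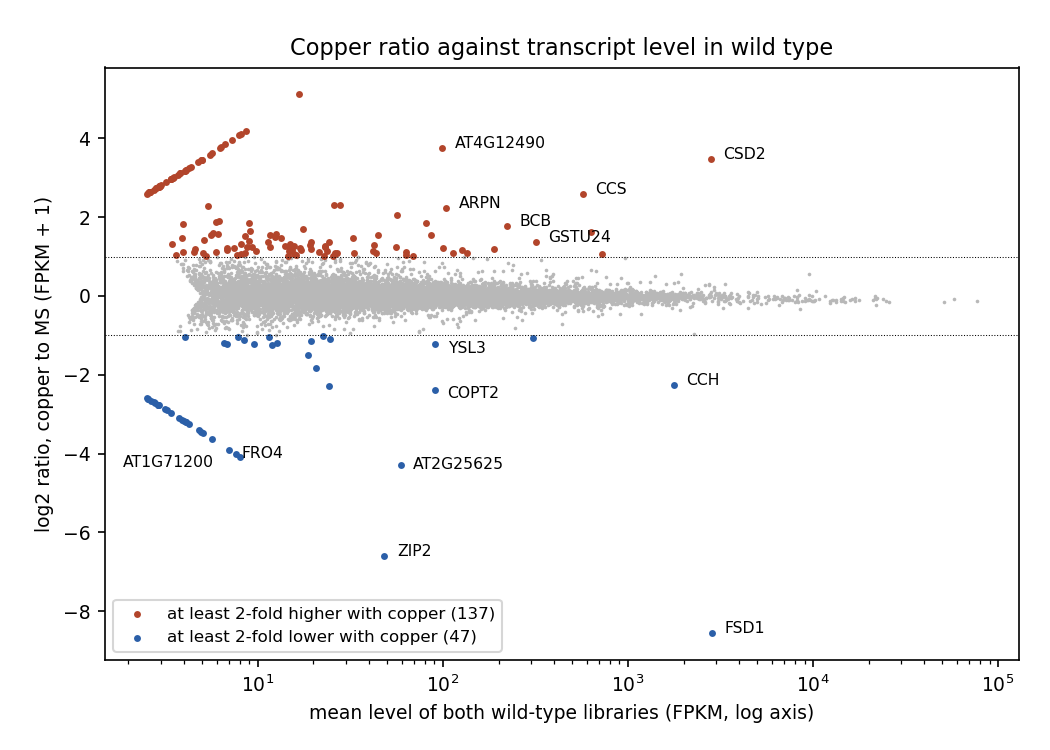
Each point is 1 of the 15888 genes, with the mean level of both wild-type libraries in FPKM on a log x axis and the log2 ratio of copper to MS (FPKM + 1) on the y axis; red points are the 137 genes called higher and blue points the 47 called lower. FSD1 at -8.55, CCH at -2.25, CSD2 at 3.47 and CCS at 2.59 lie far from other genes of their level, and the slanting rows of points at the left are genes listed at 0 in 1 library.

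How many genes passed the limit depended on their level. Among genes with a mean level under 10 FPKM, 7.41% were called, 77 higher and 31 lower. That share was 1.42% between 10 and 30 FPKM, 0.332% between 30 and 100 FPKM and 0.221% between 100 and 1000 FPKM. Of the 543 genes at 1000 FPKM and above, 3 were called (0.552%): CSD2 higher, FSD1 and CCH lower. Genes listed at exactly 0 in 1 of the wild-type libraries made up 47 of the 137 higher and 26 of the 47 lower calls. Such a 0 may be a failed estimate or a transcript too rare to be seen. The loci of these genes were short, with a median width of 687 bp for the higher and 708 bp for the lower ones, against 2196 bp over all counted genes. Their median level in the library where they were seen was 7.04 FPKM for the higher and 7.64 FPKM for the lower ones. Without genes listed at 0, 90 genes were higher (0.569%) and 21 were lower (0.133%) of 15815.

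**Figure D2:**
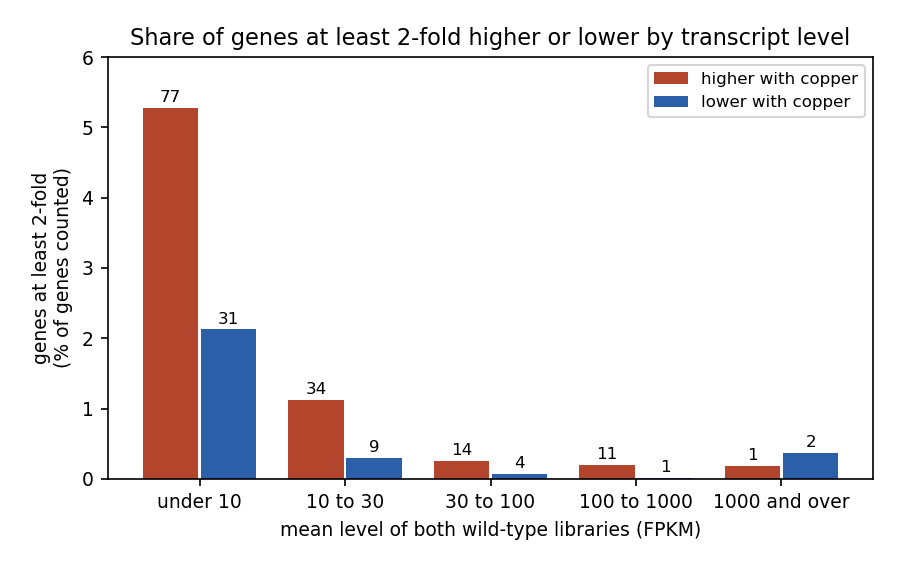
Bars give the percent of counted genes that were at least 2-fold higher (red) or lower (blue) with copper in bins of mean wild-type level in FPKM, with the number of genes above each bar. The share is highest under 10 FPKM, where 77 genes were higher and 31 lower, and higher genes outnumber lower ones in each bin except at 1000 FPKM and above, which holds 1 higher and 2 lower genes.

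The superoxide dismutases, enzymes that remove superoxide, exchanged places with copper. FSD1 (AT4G25100; TAIR10 chromosome 4, 12884300 to 12887011), the iron enzyme of the chloroplast stroma, went from 5647 FPKM on MS to 14.0 FPKM with copper, a 402-fold lower level and a log2 ratio of -8.55. Its level in spl7 was 7.64 FPKM on MS and 9.38 FPKM with copper, so wild type on MS was the single library with an abundant FSD1 transcript. CSD2 (AT2G28190), the copper/zinc enzyme of the chloroplast, went from 466 FPKM on MS to 5164 FPKM with copper, an 11.1-fold higher level. In spl7 it was 4929 and 4444 FPKM, near the level of wild type with copper. CSD1 (AT1G08830), the copper/zinc enzyme of the cytosol, stood at 186 and 1985 FPKM, 10.7-fold higher with copper, and at 2090 and 2035 FPKM in spl7. Because its locus interval is also that of another entry, CSD1 was not among the counted genes.

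The other members of the family were within 2-fold of their MS level with copper in wild type. MSD1, the manganese enzyme of mitochondria, stood at 894 and 878 FPKM. FSD3, which with FSD2 forms an iron enzyme of chloroplast nucleoids, stood at 165 FPKM in both, and FSD2 stood at 81.9 and 105 FPKM, a log2 ratio of 0.36. CSD3, the peroxisomal enzyme, stood at 165 and 166 FPKM and shares its locus with another entry. Of the 5 counted superoxide dismutases, 1 was higher, 1 was lower and 3 were not called, beside 0.862% higher and 0.296% lower over all counted genes. Their median log2 ratio was -0.0004.

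**Figure D3:**
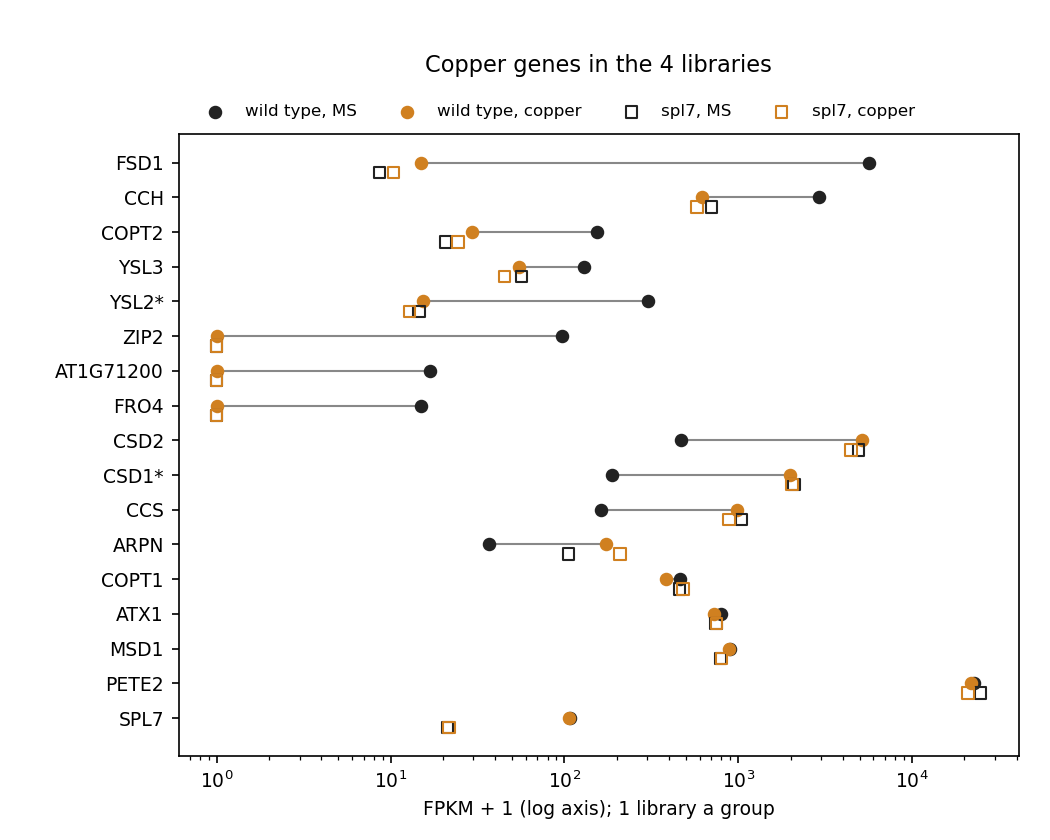
Levels of 17 copper genes as FPKM + 1 on a log axis, with filled circles for wild type and open squares for spl7, black for MS and orange for added copper, 1 library each; an asterisk marks a gene that shares its locus with another entry and a value of 1 is a gene listed at 0. For FSD1, CCH, COPT2, YSL3, YSL2, ZIP2, AT1G71200 and FRO4 the wild-type library on MS lies above the other 3, for CSD2, CSD1, CCS and ARPN it lies below them, and for COPT1, ATX1, MSD1 and PETE2 the 4 libraries lie close together.

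Among copper chaperones, proteins that hand copper to its targets, CCS and CCH moved in opposite directions. CCS (AT1G12520), which delivers copper to the copper/zinc superoxide dismutases, went from 162 FPKM on MS to 981 FPKM with copper, 6.05-fold higher. In spl7 it was 1040 and 885 FPKM. CCH (AT3G56240; chromosome 3, 20863257 to 20864544), a chaperone of the ATX1 family, went from 2929 FPKM on MS to 615 FPKM with copper, 4.76-fold lower. In spl7 it was 703 and 579 FPKM. ATX1, the close relative of CCH, was not called, with 793 and 723 FPKM.

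The remaining counted members of this list were not called. The copper ATPases PAA1 of the chloroplast envelope and RAN1 of the secretory pathway stood at 516 FPKM in both libraries and at 267 and 264 FPKM. HMA5, a copper ATPase known for copper detoxification in roots, had the highest ratio among the members not called. It was at 25.3 FPKM on MS against 44.3 FPKM with copper, a log2 ratio of 0.78, and at 28.4 and 66.9 FPKM in spl7, where its ratio of 1.21 passed the limit. The mitochondrial chaperones HCC1 and HCC2 stood at 26.2 and 22.0 FPKM and at 16.5 and 23.9 FPKM. AT1G53030 and AT1G02410, listed here as relatives of the cytochrome c oxidase assembly factors COX17 and COX11, stood at 62.0 and 77.2 FPKM and at 64.4 and 61.8 FPKM. Over the 10 counted genes, 1 was higher and 1 was lower, against 0.862% and 0.296% of all counted genes, and the median log2 ratio was -0.01. COX17 (72.9 and 77.6 FPKM), the chloroplast ATPase HMA1 (231 and 228 FPKM) and CUTA (186 in both) share their loci with other entries. PAA2 could not be matched by name and was not analysed here.

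Counted genes on the copper uptake list were lower with copper or were not called. Of 10 counted members, 5 were lower and 0 were higher, with a median log2 ratio of -0.83, beside 0.296% lower and a median of -0.0024 over all counted genes. COPT2 (AT3G46900), a high-affinity copper transporter of the plasma membrane, went from 153 FPKM on MS to 28.5 FPKM with copper, 5.38-fold lower. In spl7 it was 19.8 and 23.5 FPKM. YSL3 (AT5G53550), a transporter of metal complexes with nicotianamine, stood at 128 and 54.0 FPKM, 2.37-fold lower, and at 55.5 and 44.1 FPKM in spl7. For both transporters wild type on MS was the high library and the other 3 lay together.

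The 3 other lower genes on the copper uptake list were not seen at all with copper. ZIP2 (AT5G59520), a metal transporter of the ZIP family, stood at 96.5 FPKM on MS and was listed at 0 with copper and in both spl7 libraries. FRO4, a metal reductase of the FRO family whose activity frees copper for uptake, stood at 13.9 FPKM on MS and was listed at 0 in the other 3 libraries. AT1G71200 stood at 15.9 FPKM on MS and was likewise listed at 0 in the other 3. FRO5, which lies beside FRO4 and acts in the same reduction step, stood at 4.54 FPKM on MS, under the minimum level, and at 0 elsewhere. Without the members listed at 0 with copper, the median of the list was -0.28. YSL2, a relative of YSL3, shares its locus with another entry and went from 301 FPKM on MS to 14.5 FPKM with copper, 20.8-fold lower, beside 13.6 and 11.8 FPKM in spl7.

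Not every transporter followed. COPT1, a copper transporter known from root tips and pollen, was at 463 FPKM on MS against 383 FPKM with copper, and COPT6 stood at 349 and 257 FPKM, a log2 ratio of -0.44. FRO3, a mitochondrial reductase, stood at 134 and 110 FPKM. OPT3, a phloem transporter, stood at 562 and 462 FPKM, whereas YSL1 had a ratio above 0, with 133 and 159 FPKM. None of these 5 was called. COPT5, which moves copper out of vacuoles, stood at 447 and 473 FPKM and shares its locus with another entry, COPT3 and COPT4 were listed at 0 in all 4 libraries, and ZIP4 could not be matched and was not analysed here.

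Transcripts targeted by the copper microRNAs were higher with copper in 3 of 9 counted cases, CSD2, CCS and ARPN, and lower in 0, beside 0.862% higher over all counted genes. The median log2 ratio was 0.32. The third of these genes, ARPN (AT2G02850), encodes plantacyanin, a small blue copper protein and a target of miR408. It went from 35.9 FPKM on MS to 172 FPKM with copper, 4.80-fold higher. In spl7 it was 105 and 208 FPKM, a log2 ratio of 0.99. The spl7 level of ARPN on MS thus lay between the wild-type levels, whereas that of CCS lay above both.

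Laccases, copper enzymes of the cell wall that take part in lignin formation and are targets of miR397, miR408 or miR857, were not called. IRX12, also known as LAC4, stood at 63.0 and 80.2 FPKM and LAC17, which acts with it in lignification, at 53.2 and 51.9 FPKM. LAC3, LAC7 and LAC13 had log2 ratios between -0.06 and 0.18. LAC2 stood at 1.79 and 4.05 FPKM and LAC12 at 2.84 and 3.94 FPKM, under the minimum level. AT3G15640, listed as a subunit of cytochrome c oxidase and a target of miR398, stood at 209 and 261 FPKM. Summed over the 9 counted targets, the level was 1102 FPKM on MS and 6834 FPKM with copper, of which CSD2 gave the largest part.

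The precursors of these microRNAs are not among the matched entries, and none of the 7 was analysed here. Entries that lie beside them in the RefSeq gene order were read in their place; these genes were chosen after their values were seen. AT2G47010, near MIR408, went from 41.0 FPKM on MS to 7.66 FPKM with copper, a log2 ratio of -2.28. In spl7 it stood at 5.41 and 5.46 FPKM. AT5G14550, which starts before MIR398b and MIR398c in the same gene order, was set aside for its shared locus. It stood at 66.4 and 18.4 FPKM, and at 17.1 and 15.7 FPKM in spl7. In both, as in FSD1 and COPT2, wild type on MS was the highest of the 4 libraries. UNE15, near MIR397b and MIR857, stood at 4.49 FPKM on MS and at 0 in the other 3 libraries, but AT4G13540 and AT4G13550 beside the same precursors had log2 ratios of 0.07 and -0.08. At MIR398a, AT2G03430 and PAP9 had ratios of 0.14 and 0.10, and NRT2.7 near MIR398c had one of -0.47. AT2G47020, which like AT2G47010 starts before MIR408, stood at 31.6 and 20.9 FPKM. VGDH1, which starts after MIR408, was listed at 0 in all 4 libraries. MYB74, ENT6 and FUR1 around MIR397a had log2 ratios between -0.38 and 0.24. The protocols do not describe a stranded library, so reads from a precursor that overlaps such an entry on the opposite strand cannot be told apart from its own.

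The counted members of the list of other copper proteins were not called. PETE1 and DRT112, the latter also known as PETE2, are the plastocyanins that carry electrons to photosystem I. PETE1 was at 1699 FPKM on MS against 1779 FPKM with copper, and DRT112 at 22591 and 21947 FPKM. Their levels per length differ more than 10-fold from each other and barely between media. Of the blue copper proteins on the list, UCC2 stood at 229 and 343 FPKM, a log2 ratio of 0.58, and at 322 FPKM in both spl7 libraries. UCC1 and UCC3 had wild-type ratios of 0.04 and -0.05. AT4G39830, listed as an ascorbate oxidase, stood at 5.25 and 2.37 FPKM, a log2 ratio of -0.89, and its relatives AT5G21100 and AT5G21105 had ratios of 0.10 and -0.04. SKU5, a protein related to multicopper oxidases and involved in directed root growth, had a ratio of -0.14. The amine oxidase gene AO1 (141 FPKM in both) and ETR1 (104 and 97.5 FPKM), the ethylene receptor that binds copper, share their loci with other entries. Of the 9 counted genes 0 were called in either direction, and the median was -0.04.

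Metallothioneins, small proteins that bind copper and zinc, were not called either. MT1C was at 543 FPKM on MS against 333 FPKM with copper, a log2 ratio of -0.70, and MT2A at 2466 and 2985 FPKM, a ratio of 0.28. MT2B (16490 and 15644 FPKM) and MT3 (11627 and 11630 FPKM) share their loci with other entries, as does MT1A, which was listed at 0 in all 4 libraries.

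Genes that answer to other nutrients hardly moved as groups. Of 20 counted iron deficiency genes, 1 was higher and 0 were lower (0.862% and 0.296% over all counted genes), and the median was -0.13. The higher one was NAS2, a nicotianamine synthase, at 3.92 and 14.3 FPKM. The iron transporter IRT1 and the ferric reductase FRO2, both of the root epidermis, stood at 61.7 and 63.3 FPKM and at 30.0 and 25.6 FPKM. Among the bHLH factors that switch on the iron response, BHLH039 stood at 37.6 and 20.6 FPKM and BHLH038 was at 54.7 against 35.4 FPKM, log2 ratios of -0.83 and -0.61 that did not reach the limit. None of 4 ferritins was called (median 0.13), and none of 5 zinc deficiency genes (median 0.28, or 0.02 with set-aside entries kept), among which NAS3 had the lowest ratio, with 97.9 and 51.1 FPKM. All 8 counted genes of sulfur uptake and glutathione synthesis had ratios below 0, between -0.44 and -0.01, and none was called. Phosphate starvation genes had a median of 0.06 with 0 of 11 called. PHO1;H1, a relative of the phosphate exporter PHO1, had the lowest ratio there, with 96.7 and 51.6 FPKM.

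Among stress lists, that of oxidative stress held 1 higher gene of 18 counted, beside 0.862% higher over all counted genes. GSTU24, a glutathione transferase of the tau class, was at 177 FPKM on MS against 457 FPKM with copper, 2.58-fold higher, and at 202 and 583 FPKM in spl7. Of the 18 genes 17 had ratios above 0, and the median was 0.31. Just under the limit stood GSTU1, with 119 and 228 FPKM, and CYP81D8, with 38.6 and 76.5 FPKM. In spl7 the median of the same genes was 1.15, and 10 were called higher, beside 1.59% higher over the genes counted in both genotypes; the difference between the genotypes was not tested. Heat shock, salicylate and jasmonate lists had medians of 0.23, 0.05 and -0.06 over 8, 8 and 11 counted genes, with 0 calls in each.

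Markers of seed and embryo were higher with copper in 6 of 13 counted cases and lower in 0, beside 0.862% higher over all counted genes. All 13 had ratios above 0, between 0.45 and 2.63, and the median was 0.99. Their summed level was 398 FPKM on MS and 831 FPKM with copper. Among seed storage proteins of the 2S albumin class, SESA2 stood at 7.94 and 43.4 FPKM, SESA5 at 8.61 and 46.8 FPKM and SESA1 at 24.0 and 60.7 FPKM. The members differed in how far they moved. The cruciferin CRU3 stood at 59.9 and 141 FPKM, whereas CRA1, the most abundant member, stood at 162 and 290 FPKM and was not called. EM1, a late embryogenesis protein, stood at 5.45 and 17.8 FPKM, and SESA4 was at 0 on MS and reached 5.17 FPKM with copper.

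The same list was higher with copper in spl7 as a sum, with 257 and 695 FPKM, though by partly different members. CRA1 stood at 102 and 331 FPKM there and CRU3 at 49.9 and 133 FPKM. SESA1 stood at 14.8 and 14.7 FPKM, SESA2 went from 4.25 FPKM to 0, and SESA5 was listed at 0 in both spl7 libraries. The seed list moved with the same wild-type contrast as the copper genes and the oxidative stress list, and its part in their ratios was not tested. FSD1, COPT2 and CSD2 did not reach 2-fold in spl7. Genes that need SPL7 may not answer to copper there, so the mutant does not test this part either. SESA1 to SESA4 are close relatives, so reads shared between them may be missing from these values.

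Photosynthesis, pigment, clock, root and reference genes had small ratios. All 18 counted antenna, photosystem and Rubisco genes lay between -0.23 and -0.04, with a median of -0.10. All 10 counted flavonoid genes lay between -0.35 and -0.01, with a median of -0.13. The medians of 9 clock genes, 10 root markers and 7 reference genes were -0.03, -0.05 and 0.04. None of these genes was called. Root markers, which matter here because COPT2, FRO4, IRT1 and FRO2 are known to act in roots, ranged from -0.29 to 0.09.

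**Figure D4:**
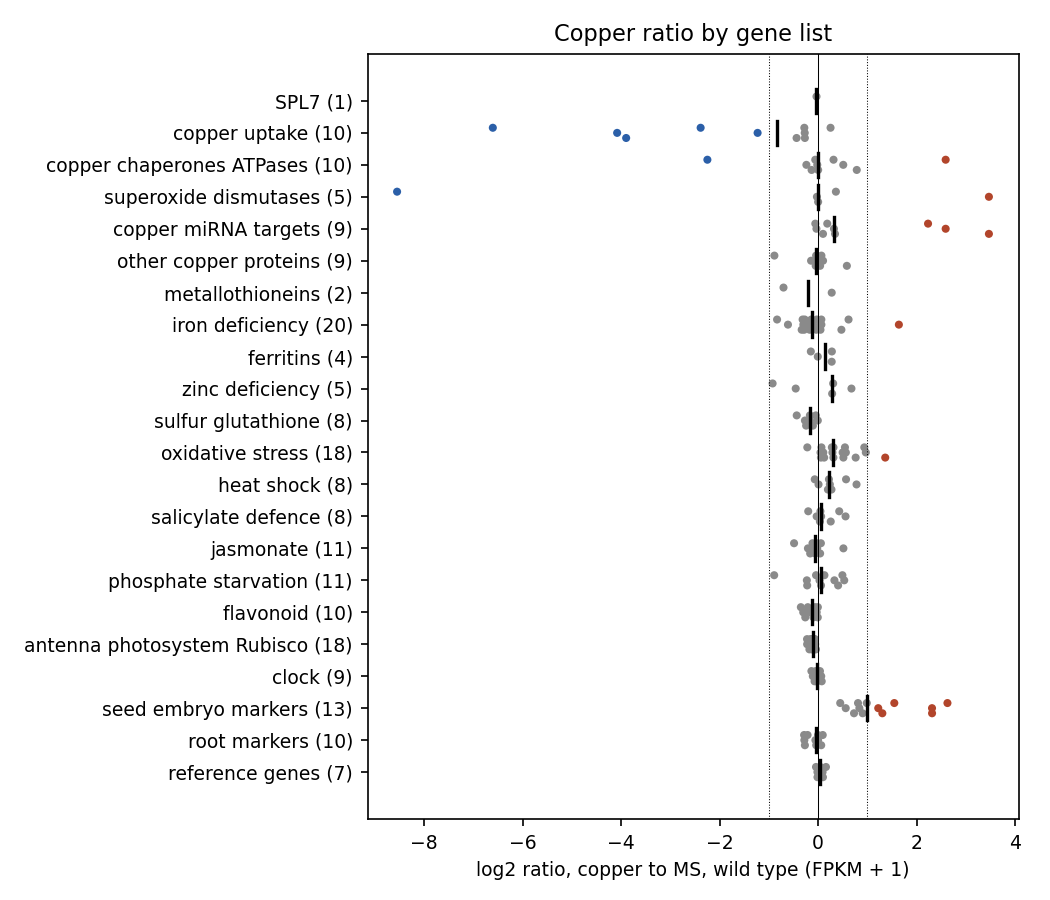
Each point is a counted gene of a list at its log2 ratio of copper to MS in wild type (FPKM + 1), red where called higher and blue where called lower, with a vertical bar at the list's median and the number of counted genes in brackets; targets of microRNAs repeat CSD2 and CCS from other lists. Copper uptake, with a median of -0.83, and seed markers, with 0.99, lie farthest from 0, while superoxide dismutases and chaperones hold calls in both directions around medians near 0.

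Abundant genes beyond the copper lists were read separately, since their ratios rest on higher levels. Of 6122 genes with at least 100 FPKM in either library, 15 were higher (0.245%) and 6 lower (0.098%). Besides FSD1, COPT2, CCH and YSL3 the lower ones were AT2G25625 and HB-7. AT2G25625 went from 114 FPKM on MS to 4.90 FPKM with copper, a log2 ratio of -4.28, but from 2.77 to 20.0 FPKM in spl7. HB-7, a homeodomain factor induced by abscisic acid and water deficit, stood at 414 and 197 FPKM, and at 346 and 251 FPKM in spl7. CaS, the chloroplast calcium sensor, was just outside the limit with 3010 and 1542 FPKM, and stood at 1550 and 1408 FPKM in spl7. HB-7, CaS and the genes of the next paragraph, other than AT4G12490, pEARLI 1 and those on the lists, lie outside the naming rule and were chosen after their values were seen.

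On the higher side, AT4G12490 had the largest ratio, with 12.8 FPKM on MS, 186 FPKM with copper and a log2 ratio of 3.76, and with 11.4 and 603 FPKM in spl7. Its neighbour pEARLI 1 (AT4G12480), a gene first known for its response to aluminium, stood at 310 and 955 FPKM, and at 299 and 1248 FPKM in spl7. Both belong to a tandem group of close relatives, whose shared reads are lost with unique mapping. BCB, a blue copper-binding protein that also answers to aluminium and senescence, stood at 99.8 and 343 FPKM, and at 179 and 576 FPKM in spl7. NRAMP3, which exports iron and manganese from vacuoles, stood at 72.7 and 155 FPKM, and at 78.5 and 198 FPKM in spl7. In each of these 4 genes and in GSTU24 the copper library was the higher one of both genotypes, unlike CSD2 and CCS. AT1G21520 (43.3 and 128 FPKM), AT5G22140 (34.9 and 128 FPKM) and AT3G16530 (115 and 262 FPKM) followed the same order in spl7, with 35.3 and 338 FPKM, 34.0 and 182 FPKM, and 153 and 503 FPKM. The others were AT1G73120 (469 and 988 FPKM), AT5G16980 (78.1 and 177 FPKM) and the thymidine kinase gene AT3G07800 (86.4 and 185 FPKM), beside CRU3, ARPN, CCS, CSD2 and GSTU24. The spl7 levels of AT1G73120 were 449 and 709 FPKM, those of AT5G16980 66.9 and 123 FPKM and those of AT3G07800 78.1 and 140 FPKM. Each was thus higher with copper in spl7 as well but was not called there. CRU3 and ARPN were also higher with copper in spl7.

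The extremes of the ratio were mostly low genes listed at 0 in 1 library. Of the 15 highest ratios, AT4G12490 and CSD2 were above 0 in both libraries. The others, all at 0 on MS, reached between 9.91 FPKM (IQD20) and 33.6 FPKM (AT4G37095) with copper. AT2G42340, at 17.3 FPKM with copper, was also at 0 on MS and at 14.9 FPKM with copper in spl7, and ZPR2, a small leucine zipper protein, AT4G11393 and AT3G59450 did likewise, with 13.4, 12.5 and 11.3 FPKM in wild type, against 7.89, 12.4 and 9.40 FPKM in spl7. PDF2.5, a defensin, AT1G78172 and IQD20 were at 0 on MS in wild type but at 10.4, 10.1 and 7.08 FPKM on MS in spl7. AT1G07500, also known as SMR5, a cell-cycle inhibitor, stood at 14.4 FPKM with copper in wild type and at 0 in the other 3 libraries, as did AT5G15853 at 12.7 FPKM and AT2G30942 at 9.93 FPKM. AT4G37095, AT5G04790 and IDL5 went the opposite way in spl7.

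Of the 15 lowest ratios, FSD1 and AT2G25625 were above 0 in both wild-type libraries. ZIP2, AT1G71200 and FRO4 were described above. AT4G39925, AT3G02390, NTL and AT4G14723 stood between 8.14 and 11.3 FPKM on MS and at 0 with copper, but between 5.46 and 13.4 FPKM in both spl7 libraries. AT4G12005, AT1G55365 and AT4G13572 stood at 8.22, 7.97 and 7.79 FPKM on MS and at 0 in the other 3 libraries. GDU5 stood at 9.63 FPKM on MS in wild type and 5.16 FPKM on MS in spl7, and at 0 with copper in both. AT1G53542 and AT2G32200 stood at 15.2 and 8.50 FPKM on MS and went the opposite way in spl7.

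The wild-type calls were then read in spl7, a comparison that shares no library with the wild-type one. Of the 137 genes higher in wild type, 68 (49.6%) were also at least 2-fold higher with copper in spl7, where 1.59% of the 15646 genes counted in both genotypes were. The 2 shares are over unlike sets, since the 137 include genes not counted in spl7. These were 15 of those listed at 0 in a wild-type library and 9 of those above 0 in both. The 68 make up 21.9% of the 310 genes higher among all genes counted in spl7, of which 249 were also counted in wild type. With a pseudocount of 5 FPKM in place of 1, 36 of 88 higher genes were also higher in spl7. Of the 47 lower genes, 6 (12.8%) were also lower in spl7, where 0.345% of the genes counted in both genotypes were. The 47 likewise include genes not counted in spl7, 12 listed at 0 in a wild-type library and 3 above 0 in both. The 6 are 7.41% of the 81 genes lower in spl7, of which 54 were also counted in wild type. In the opposite direction went 6 of the higher and 5 of the lower genes. Among the 90 higher genes that were above 0 in both wild-type libraries, 52 were also higher in spl7, 0 were lower, 29 were not called and 9 were not counted. Their median log2 ratio was 1.24 in wild type and 1.27 in spl7. Among the 21 lower genes above 0 in both, 4 were also lower, 2 were higher, 12 were not called and 3 were not counted, and their medians were -1.21 and -0.32. Neither the difference between the genotypes nor that between higher and lower genes was tested.

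Named genes differed in their spl7 ratios. CSD2, CCS, FSD1, CCH, COPT2 and YSL3 had log2 ratios between -0.32 and 0.26 in spl7. AT2G47010 stood at 0.01 there. AT4G12490, pEARLI 1, BCB, NRAMP3, GSTU24 and NAS2 had spl7 ratios of 5.61, 2.06, 1.68, 1.32, 1.52 and 3.53. The 4 lower genes above 0 that were lower in both genotypes were AT2G43140 (28.1 and 9.31 FPKM in wild type, then 30.9 and 10.3 FPKM in the mutant), AT5G15500 (27.0 and 11.7, 53.8 and 20.1 FPKM), AT5G47590 (33.7 and 15.3, 32.9 and 15.0 FPKM) and AT1G60110 (11.9 and 4.91, 5.76 and 2.20 FPKM); they were chosen after their values were seen.

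**Figure D5:**
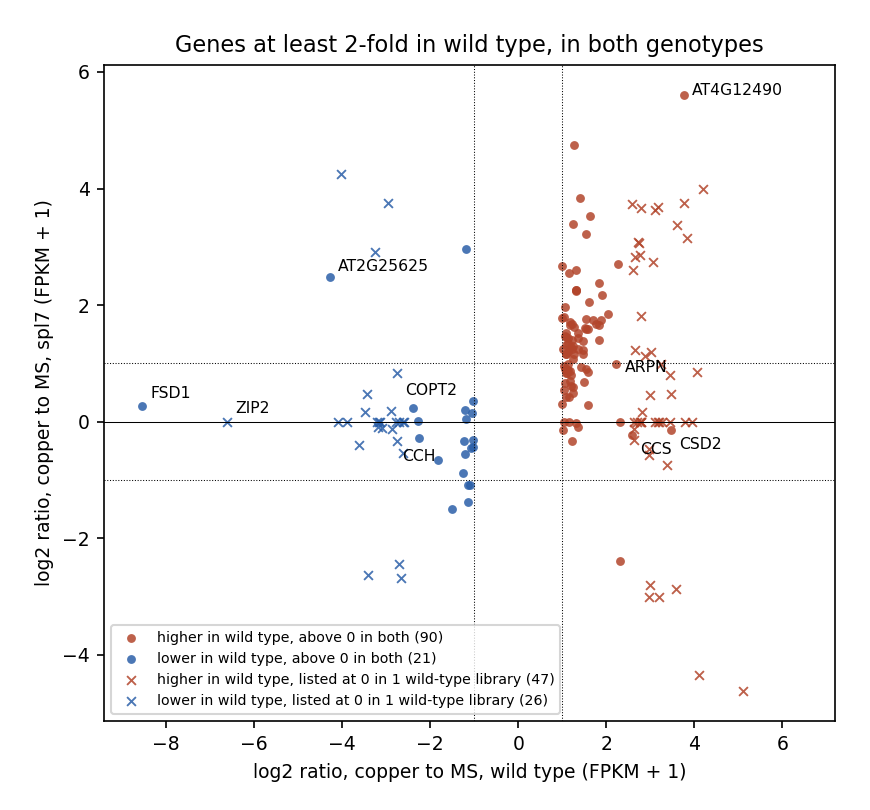
Each point is 1 of the 184 genes called in wild type, with its log2 ratio of copper to MS in wild type on the x axis and in spl7 on the y axis (both on FPKM + 1); dots are above 0 in both wild-type libraries, crosses are listed at 0 in 1 of them, and dotted lines mark 2-fold. Of the 90 dots at the right, 52 were also called higher in spl7, with CSD2 and CCS near 0, and FSD1, COPT2 and CCH at the left also lie near 0.

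Peaks of FLAG-SPL7 were counted near the called genes and over all counted genes. A deposited peak overlapped the gene, or lay within 1 kb of it, in 9 of the 137 higher genes (6.57%), in 3 of the 47 lower genes (6.38%) and in 1234 of the 15888 counted genes (7.77%). That share rose with level over all genes, from 2.54% under 10 FPKM to 67.0% at 1000 FPKM and above, and 108 of the 184 called genes lay under 10 FPKM. Strand and peak caller settings are not given in the files, so position relative to the start of transcription was not used.

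The 3 lower genes with a peak were FSD1, CCH and AT2G47010. FSD1 held 3 peaks on chromosome 4, at 12884321 to 12884661, 12885190 to 12885578 and 12886704 to 12887053, with scores of 181, 236 and 211 as the authors gave them. CCH held 1, on chromosome 3 at 20863422 to 20863788, with a score of 208. The peak near AT2G47010, on chromosome 2 at 19319530 to 19319925, lay 133 bp beyond the gene and had a score of 283. The same peak was also assigned to its neighbour AT2G47020, which was not called (log2 ratio of -0.57). Scores in the list ran from 165 to 3126 with a median of 224.

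Of the higher genes with a peak, CSD2 held one inside the gene, on chromosome 2 at 12014504 to 12014846 with a score of 229, and pEARLI 1 one at its edge with a score of 227. TIM17-1, a subunit of the mitochondrial protein import machinery, stood at 16.7 and 35.7 FPKM and had a peak with a score of 3100 at a distance of 191 bp; the same peak overlaps its neighbour DRT112, the abundant plastocyanin gene. AT1G56060 was listed at 0 on MS and at 7.37 FPKM with copper, and its peak with a score of 967 lay 977 bp away. The others were AT3G09430, AT2G20635, AT4G32510, AT3G56350 and AT5G15853, with scores between 182 and 217. COPT2, YSL3, ZIP2, FRO4, AT1G71200, CCS and ARPN had no peak within 1 kb. A peak of score 743 lay at the shared locus of AT5G14550 on chromosome 5, at 4690462 to 4691151.

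The 2854 set-aside entries of at least 5 FPKM held 41 higher (1.44%) and 24 lower ones (0.841%). The higher ones included CSD1 and 14 CPuORFs, and the lower ones included YSL2 and AT5G14550. The values of entries that share a locus depend on how reads were divided between them, so these were not read as calls.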

How the data were processed

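RNA-seq values of 4 libraries and 1 list of ChIP-seq peaks were read. The authors derived the FPKM values with TopHat and Cufflinks on TAIR10, keeping uniquely mapped reads, per the submitters' processing notes and the series description. Base calls came from CASAVA 1.8.2 and ChIP reads were mapped with Bowtie, per the same notes, and the sources used here give no other versions. Reads of near-identical copies are lost by mapping uniquely. The peak score is the authors' own, as deposited, and its meaning is not stated there. Read depth is unknown, so no counting interval is given.

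Entries were joined over the 4 files by name and locus, and 26909 of 27052 were matched to a locus code through a RefSeq table (TAIR10.1), used for names and gene order alone. The files count gene starts from 0, and coordinates here are 1-based. Ratios are log2 of FPKM + 1, for genes that reach 5 FPKM in one or other library, and the limit was 2-fold. No test was run, as each group is 1 library. Medians were taken over counted members of 23 lists (274 genes, 260 matched). A gene of one added list is not reported here and is left out of that list's counts. The members and lists were chosen with earlier results of these data known. Peaks were assigned to a gene where they overlapped it, widened by 1 kb at both ends, by 1 bp or more. A count of promoters with the motif GTAC had been planned and was not run. Scripts used Python 3.11.15, pandas 2.3.3, numpy 2.4.6 and matplotlib 3.10.9, and were tested on simulated data.

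Genes named are the 15 highest and 15 lowest ratios among called genes, members of the copper lists (SPL7, uptake, chaperones and ATPases, superoxide dismutases, microRNA targets and precursors, other copper proteins, metallothioneins), up to 4 called members of each other list, and up to 10 called genes with a peak in each direction. Other genes were picked once their values had been seen, as the text says beside them. This also holds for uncalled members of the other lists, for the called seed genes SESA1 and CRU3, and for the genes at the 2-fold limit.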

Additional observations from a re-analysis of the deposited data

Results flagged for a closer look

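In 11 genes the log2 ratio of copper to MS passed 2-fold in opposite directions in wild type and spl7. With 1 library a side the difference between the genotypes was not tested. Lower in wild type and higher in spl7 were AT2G25625 (-4.28 and 2.48), AT1G53542 (-4.02 and 4.26), AT2G32200 (-3.25 and 2.92), AT5G36925 (-2.96 and 3.74) and CYP79F1 (-1.20 and 2.97), an enzyme of aliphatic glucosinolate synthesis. Higher in wild type and lower in spl7 were AT5G55680 (2.96 and -3.00), AT5G02570 (2.99 and -2.80), AT5G60260 (3.20 and -3.01), IDL5 (3.58 and -2.88), AT5G04790 (4.11 and -4.34) and AT4G37095 (5.11 and -4.62). AT2G25625 was the one of them above 0 in all 4 libraries. CYP79F1 went from 9.53 to 3.59 FPKM in wild type and from 0 to 6.82 FPKM in spl7.

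CPuORF entries, conserved reading frames upstream of the main one in another gene, were set aside. Of 33 with at least 5 FPKM in either wild-type library, 14 were at least 2-fold higher with copper and 0 were lower. CPuORF19 went from 0.0957 FPKM on MS to 389 FPKM with copper, and CPuORF28 from 0.0688 to 318 FPKM. In spl7 CPuORF19 stood at 0.08 and 415 FPKM and CPuORF28 at 0.0454 and 252 FPKM. CPuORF16 and CPuORF29 were instead at 0 in both spl7 libraries. CPuORF5 went from 0.0558 FPKM to 0 there, and CPuORF54 stood at 13.0 and 14.5 FPKM. The entry that shares the locus of CPuORF28, AT1G70780, stood at 727 and 680 FPKM in wild type. That of CPuORF10, AT5G15950, stood at 637 and 527 FPKM, so neither main entry rose with its CPuORF. Whether reads were divided between entries of a locus in the same way on both media was not tested. Among the 2854 set-aside entries of at least 5 FPKM, 41 were higher (1.44%) and 24 lower (0.841%).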

How the results depend on the processing

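The counts of 137 higher and 47 lower genes depended on the settings. They were 329 and 169 with a minimum of 1 FPKM and also with none, 54 and 13 with a minimum of 20 FPKM, and 15 and 6 with one of 100 FPKM, an alternative chosen after seeing the data. They were 380 and 164 at 1.5-fold, 55 and 31 at 4-fold, and 90 and 21 without genes listed at 0. With a pseudocount of 5 FPKM 88 were higher, of which 36 were also higher in spl7, and 3 of the 35 lower ones were also lower there. With set-aside entries kept, 71 were lower. A pseudocount of 0.1 FPKM and both rescalings left the counts within 1.5 times. List medians moved for seed markers, to 0.88 with a pseudocount of 5 FPKM, for copper uptake, to -0.28 without genes listed at 0, and, with set-aside entries kept, for zinc deficiency, from 0.28 to 0.02, and for metallothioneins, from -0.21 to -0.04. With flanks of 500 bp 4 of 137 higher genes had a peak, beside 6.58% of counted genes, and with 3 kb 7 of 47 lower ones, beside 12.1%. Of 176 values for 44 copper genes under other pseudocounts and scalings, 175 kept their call, 0 reversed, and AT4G39830 passed the limit at -1.11 with a pseudocount of 0.1 FPKM. Depth is unknown, and values at 0 and genes under 10 FPKM are the least certain. No paired analysis was possible because the groups are 1 library each and carry no replicate numbers.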

Other observations

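These genes were grouped after their values were seen, so the groups are no independent evidence, and no cause was tested. Genes that answer to DNA damage were higher with copper in 4 of 18 counted cases and lower in 0, with median log2 ratios of 0.58 (wild type) and 0.68 (spl7), beside 0.862% higher over all counted genes. The cell-cycle inhibitor SMR4 (AT5G02220) went from 7.88 FPKM on MS to 20.3 FPKM with copper, and SMR5 (AT1G07500) was at 0 on MS and reached 14.4 FPKM with copper. SMR5 has a mean under 10 FPKM, where 77 of 1458 genes were higher, and was at 0 in both spl7 libraries. SMR4 lies between 10 and 30 FPKM, where 34 of 3037 genes were higher. The thymidine kinase TK1a (AT3G07800) stood at 86.4 and 185 FPKM and a poly(ADP-ribose) polymerase (AT4G02390) at 25.8 and 58.1 FPKM. Called higher in spl7 were 5 of the 18 genes, and 0 were lower. The polymerase gene was among them, and TK1a, with a log2 ratio of 0.83 there, was not. The repair gene BRCA1 (20.9 and 33.6 FPKM) and TSO2 (522 and 815 FPKM), a subunit of ribonucleotide reductase, had ratios above 0 without reaching 2-fold. Of the 18 genes 16 had ratios above 0, while the strand-break sensor KU80 stood at 60.2 and 58.1 FPKM.

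Of 17 counted genes of mitosis and cytokinesis 3 were higher, beside 0.862% of all counted genes and 1.42% called in either direction between 10 and 30 FPKM, where the means of these 3 lie. They were the kinase AUR3 (11.4 and 27.3 FPKM), BUB3.2 (8.11 and 21.7 FPKM) and the kinesin POK1 (16.8 and 36.6 FPKM). The list's median was 0.13, and the cytokinesis syntaxin KN stood at 187 and 191 FPKM. Of 11 counted genes of aliphatic glucosinolates 2 were lower, CYP79F1 and FMO GS-OX3 (10.9 and 4.80 FPKM), beside 0.296% of all counted genes and 31 of the 1458 with a mean under 10 FPKM, where both lie. Of the 11 genes 10 had ratios below 0, and the median was -0.13 in wild type and 0.35 in spl7.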
